A study of Mus musculus with 10 samples.

Results

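Extrastriolar type I hair cells (HCs) were taken here as the vestibular cells selected on their own counts: droplet barcodes with at least 200 genes, at least 1000 unique molecular identifiers (UMIs, each counting 1 transcript once) and under 25% mitochondrial UMIs, that held a UMI in at least 3 of the 6 HC genes Myo6, Myo7a, Pou4f3, Tmc1, Kncn and Gfi1, at least 1 UMI of Adam11, no UMI of Ocm or Sox2, and a UMI in fewer than 2 of the 5 supporting cell genes Otog, Otogl, Otol1, Slitrk6 and Agr3. The rule kept 1051 cells of 10424 vestibular cells and of 1652 gated vestibular HCs. Cells of both organs together numbered 17696. The 14 genes of the rule are the means of choosing the cells, and their levels below are a description.

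Vestibular HCs turn head movement into signals through a bundle of stereocilia beside 1 kinocilium. Type I HCs are flask-shaped cells wrapped by a calyx nerve ending, while type II HCs contact small bouton endings. The sensory sheets of the utricle and saccule have a central stripe, the striola, where type I HCs hold the calcium-binding protein oncomodulin (Ocm), and a wider extrastriolar zone around it where they lack it. The gate therefore follows a molecular contrast and not a position: no file says where a cell lay, and the cristae, which have central and peripheral zones instead, were in the same libraries. "Extrastriolar" is used below as the name of Ocm-negative, Adam11-positive HCs in this sense.

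The samples were whole vestibular organs and whole cochleae of wild-type CBA/J mice aged 22 months, with 7 to 8 mice of both sexes pooled in each library and no treatment other than ageing. Each organ had 5 libraries made with the 10x 3' kit. Replicate 2 repeated replicate 1 in each organ, with 1633 of its 1641 vestibular barcodes shared and counts that differed by less than sampling noise, so the pair was counted once and replicate 1 was used, giving 4 libraries. Only aged mice were analysed, and none of the values is a change with age. As the mice were pooled, n = 4 counts pools and not animals, and errors are SDs over these pools unless called SE. Levels are UMIs of a gene per 1000000 UMIs (CPM) of the named cells in a library.

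Vestibular replicates 1, 3, 4 and 5 held 4150642, 24104850, 10318267 and 9482901 UMIs. Extrastriolar cells numbered 106, 478, 295 and 172 in them, so replicate 3 gave 45.5% of all. Their median depths were 4163, 4732, 3443 and 4615 UMIs a cell. They made up 61.6%, 62.2%, 68.1% and 61.9% of the gated vestibular HCs, a mean of 63.4% ± 3.13. The exact (Clopper-Pearson) 95% intervals, which cover counting error only, ran from 53.9% to 68.9% in replicate 1 and from 63.5% to 72.5% in replicate 4. The share moved with the depth and the threshold on Adam11, and was 53.8% when at least 2 Adam11 UMIs were asked for and 39.0% with every cell thinned to 1000 UMIs. No 2 libraries shared a barcode among these cells.

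The populations used for comparison came from the same gate. Ocm-high type I HCs held Adam11 and at least 3 Ocm UMIs with no Sox2, and numbered 15, 85, 45 and 33. Type II HCs held Sox2 without Adam11 or Ocm, and numbered 25, 56, 21 and 26. Cochlear HCs passed the HC and supporting cell rules in the cochlear libraries with no Sox2 UMI, and numbered 19, 68, 11 and 25. The small numbers in some libraries set the precision of each comparison.

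At the edge of the rule, 169 extrastriolar cells had exactly 1 Adam11 UMI and 191 had 2. Just outside lay 161 HCs with no UMI of Adam11, Ocm or Sox2. Their median depth was 2303 UMIs, against 3595 in the cells with 1 Adam11 UMI, and they held 29008 CPM of Spp1 against 44214. At the edge in Ocm, 19 cells had 1 Ocm UMI and 9 had 2, while 4 had 3, 8 had 4 and 166 had 5 or more. The pooled level of Pcdh20 was 749 CPM in the cells with 1 Ocm UMI, 110 CPM with 2, 197 CPM with 3, 586 CPM with 4 and 91.7 CPM with 5 or more, so it did not fall evenly across the edge.

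Spp1 encodes osteopontin, a secreted phosphoprotein known from bone matrix and a marker of type I HCs. It stood at 42740, 43045, 34973 and 37628 CPM in extrastriolar cells of replicates 1, 3, 4 and 5, at 19998, 24596, 18384 and 19387 CPM in Ocm-high cells and at 4759, 5671, 6904 and 8445 CPM in type II HCs. The 3 populations did not overlap in any library, in that order. A Spp1 UMI was seen in 99.9% of extrastriolar cells (median 4185 UMIs), and in 45.6% of macrophage-like cells (median 2738 UMIs), a cell type that can express Spp1 itself. The markers named for these cells were proposed with results of these data known, and are given without a test.

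Pcdh20, a protocadherin of the cell surface, was the marker that set the type I populations furthest apart. Its level was 1954, 1530, 1160 and 1347 CPM in extrastriolar cells, and 110.2, 150.3, 54.4 and 51.7 CPM in Ocm-high cells. Type II HCs held 661 ± 82.8 CPM, between the others, so Pcdh20 marked Ocm-negative HCs of both types more than type I cells as such. A UMI was present in 94.3% of extrastriolar, 81.2% of type II, 19.1% of Ocm-high and 2.49% of macrophage-like cells.

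Bmp2, a secreted ligand of the bone morphogenetic protein (BMP) pathway, stood at 839.8, 587, 445 and 553 CPM in extrastriolar cells and at 243, 108, 81.6 and 96.9 CPM in Ocm-high cells. No UMI was found in type II HCs, where 3 counts would be 4.68 CPM, so the level was at least 129-fold higher in extrastriolar cells. Atp2b2, the plasma membrane calcium pump of stereocilia, stood at 1886, 1462, 1892 and 1696 CPM, against 1367, 1253, 1482 and 1189 CPM in Ocm-high cells and 152 ± 36.3 CPM in type II HCs. Atp2b2 thus separated both type I populations from type II HCs, and its extrastriolar and Ocm-high levels overlapped over the libraries, with the extrastriolar level the higher in each of the 4. Adam11, which the rule used, was at 974 ± 198 and 1156 ± 343 CPM in the 2 type I populations.

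**Figure D1:**
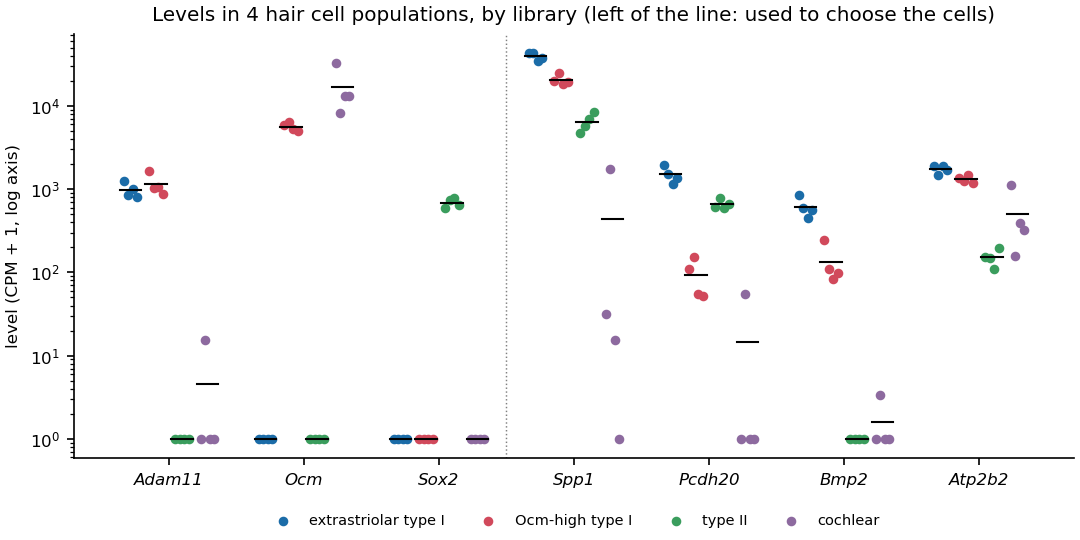
Levels (CPM + 1, log axis) of 7 genes in 4 hair cell populations, with 1 point for each of 4 libraries and a bar at the mean. Left of the dotted line are genes that chose the cells. Right of it, Spp1 falls from extrastriolar to Ocm-high to type II cells without overlap, Pcdh20 is lowest of the vestibular populations in Ocm-high cells, and Bmp2 is at 0 in type II cells.

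Markers of other cell types were summed in each library. The 6 macrophage markers summed to 4.53, 31.8, 111 and 7.96 CPM in extrastriolar cells of replicates 1, 3, 4 and 5, against 8433 to 13108 CPM in macrophage-like cells, and none of the 6 was at 0. The 10 supporting cell markers summed to 56.6, 209, 163 and 69.0 CPM, with Gjb2 the most abundant, against 1603 to 3571 CPM in vestibular cells outside the HC gate. Coch, an abundant transcript of inner ear fibrocytes, was at 356 ± 290 CPM in extrastriolar cells and 6902 CPM outside the gate. Haemoglobin RNA reached 109, 2078, 4713 and 16406 CPM, and 0, 2, 3 and 4 cells with over 1% haemoglobin UMIs carried most of it. Without these 9 cells the levels were 109, 265, 241 and 370 CPM. Endothelial markers summed to at most 7.40 CPM, with Cldn5 and Flt1 at 0. The 5 granulocyte markers, none at 0 and S100a9 the most abundant, summed to 2.26, 362, 926 and 30.5 CPM, against 3947 to 58764 CPM outside the gate and at most 38.8 CPM in Ocm-high cells. The 6 neuron markers summed to 1521, 1219.9, 1597 and 1182 CPM, against 28.0 to 66.7 CPM outside the gate and 2447, 1498, 2482 and 1932 CPM in Ocm-high cells. Nefm, a neurofilament, made up most of this sum at 819 CPM, and Prph and Scn9a were at 0. The 5 melanocyte markers summed to 2.65 to 28.3 CPM, with Tyrp1 at 0. The 6 glia markers, none at 0, summed to 86.0, 60.5, 79.7 and 38.5 CPM, against 158 to 614 CPM outside the gate. Without cells over 1% haemoglobin UMIs, an alternative chosen after seeing the data, 650 of the 657 calls against Ocm-high cells that could be tested again were kept, 932 of 942 against type II HCs and 1809 of 1842 against cochlear HCs. With no UMI allowed in any of the 5 supporting cell genes, 604 of 646, 648 of 813 and 1528 of 1708 were kept. The part of the other markers in the comparisons that follow was not tested.

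Which genes besides Ocm separate the type I populations was asked first, since both come from the same libraries and mice. Among 6269 genes tested without the genes of the rule, 321 (5.12%) were higher and 337 (5.38%) lower in extrastriolar than in Ocm-high cells (edgeR quasi-likelihood test on UMIs summed per library, Benjamini-Hochberg adjusted p under 0.05). With the library as a block, as the populations share libraries, 560 were higher and 515 lower, and all 658 genes called without the block were called again. Without replicate 3, which holds the most cells, 189 were higher and 197 lower.

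Cbln4, a secreted cerebellin that bridges synapses, was among the genes higher in extrastriolar cells. Its level was 172, 92.3, 74.7 and 87.5 CPM, and 1 UMI was seen in all Ocm-high cells, which gives a ratio between 15.2 and 3335 (95% counting interval). Mgat4c, a glycosyltransferase that branches N-glycans, stood at 104, 103, 64.7 and 94.2 CPM and had no UMI in Ocm-high cells, a level at least 24.2-fold higher. Tgm5, a transglutaminase, and Ly75, an endocytic receptor of the mannose receptor family, were likewise without a UMI there. They stood at 79 ± 20.3 and 73.3 ± 7.11 CPM in extrastriolar cells. To be tested, a gene had to reach a filter on low counts, 23.8 CPM, in 4 of the 8 libraries. These genes reached it in the extrastriolar libraries alone, and their choice required no overlap, so no test is given.

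Stxbp6, a regulator of SNARE complexes, stood at 90.5, 88.8, 71.7 and 67.6 CPM in extrastriolar cells and at 0, 2.51, 0 and 6.46 CPM in Ocm-high cells. Its log2 fold change was 4.92 ± 0.51 (SE), and it too reached the filter in the extrastriolar libraries alone. Kirrel3os, an antisense transcript at the Kirrel3 locus, stood at 143 ± 32.4 against 2.51 ± 5.01 CPM, and reads of it and of its partner gene can be told apart only if the authors' counting used strand.

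S100a6, a small calcium-binding protein, stood at 1870, 1966, 3696 and 2773 CPM in extrastriolar and 22, 45.1, 74.8 and 25.8 CPM in Ocm-high cells. That is 61.4-fold by the means (log2 fold change 5.91 ± 0.32, SE, adjusted p = 1.76e-12, edgeR). Only some extrastriolar cells carried it, as described at the end.

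The genes that fell furthest were at or near 0 in extrastriolar cells, which choosing them by fold favours. Ano2, a calcium-activated chloride channel, had 1 UMI in 1051 cells and stood at 232, 95.2, 122 and 194 CPM in Ocm-high cells. Paqr9, a membrane receptor of the progestin and adipoQ family, was at 2.26, 2.61, 12.9 and 0 CPM against 1146, 619, 605 and 549 CPM, 164-fold lower by the means. Hmcn1, the extracellular matrix protein hemicentin, was at 5.66 ± 3.52 against 273 ± 86.1 CPM. Brinp1, Creb5, Nell2, Pcolce2 and Chst2 were each under 1 CPM on average in extrastriolar cells, and between 52.4 and 72.3 CPM on average in Ocm-high cells. Ptgs2os, a transcript beside the cyclooxygenase gene Ptgs2, had no UMI in extrastriolar cells and 57.6 ± 22.3 CPM in the others. None of these genes overlapped between the populations, which their choice required. They passed the filter on low counts through the Ocm-high libraries alone, so their levels are given without a test.

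**Figure D2:**
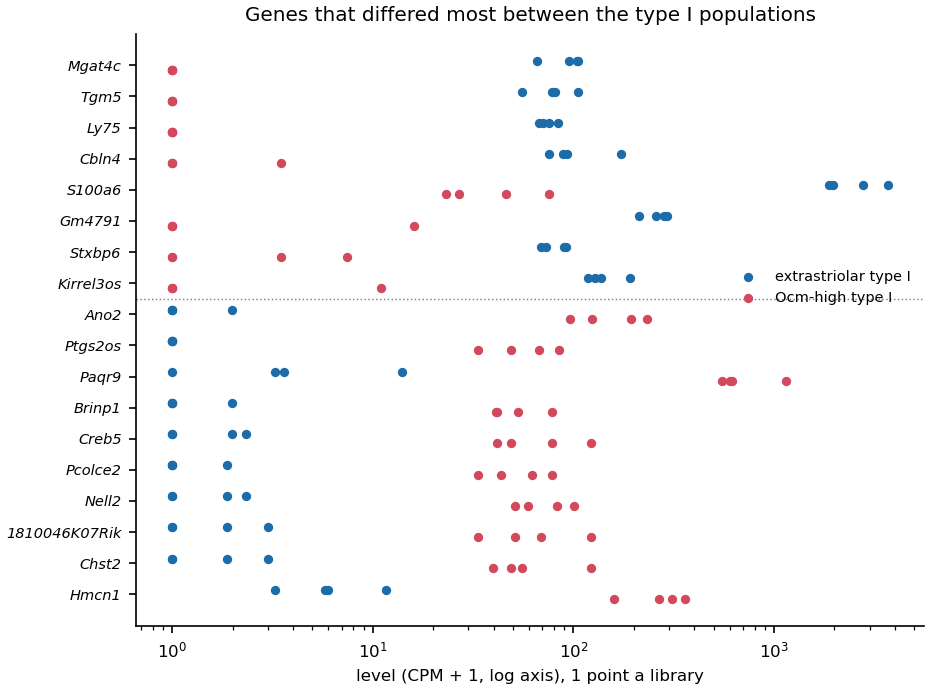
Genes among those with the largest log2 fold change in each direction between extrastriolar and Ocm-high type I cells, as CPM + 1 on a log axis with 1 point a library. Points at 1 are libraries without a UMI, and in no gene do the populations overlap, which the choice of these genes required.

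Cib2 and Cib3 changed in opposite directions between the type I populations. They are calcium- and integrin-binding proteins that attach to the transduction channels Tmc1 and Tmc2. Cib3 stood at 1901, 1882, 2148 and 1731 CPM in extrastriolar cells and 55.1, 170.4, 81.6 and 32.3 CPM in Ocm-high cells (log2 fold change 4.30 ± 0.29, SE, adjusted p = 1.22e-10, edgeR). Cib2 ran the other way, at 52.1, 78.4, 91.6 and 106 against 706, 679, 789 and 704 CPM (log2 fold change -3.04 ± 0.18, SE, adjusted p = 1.67e-11, edgeR). Tmc2 was higher in extrastriolar cells, 60.3 ± 19.8 against 11.6 ± 16 CPM, and only 1 Ocm-high library reached the level of the filter on low counts. Tmc1, a gene of the rule, stood at 526 ± 127 and 538 ± 188 CPM.

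Against type II HCs the Cib genes gave a different picture. Cib3 was at 1526 ± 297 CPM in type II HCs, near its extrastriolar level, with a log2 fold change of 0.38 ± 0.18 (SE). Its adjusted p was 0.2 without and 0.0299 with the library as a block (edgeR), so the call rests on the block. Cib2 was at 631 ± 82.9 CPM there and again lower in extrastriolar cells (log2 fold change -2.86 ± 0.20, SE, adjusted p = 3.40e-10, edgeR). Of all 4 populations, extrastriolar cells had the lowest mean level of Cib2, while cochlear HCs, at 2581 ± 466 CPM of Cib2 and 14.2 ± 28.5 CPM of Cib3, had the highest of Cib2 and the lowest of Cib3.

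Genes were tested where 4 of the 8 libraries of a comparison reached the filter on low counts, 23.8 CPM here, 26.8 CPM against type II HCs and 23.2 CPM against cochlear HCs. A gene can pass through the population where it is high alone, so the counts of list genes below describe the genes tested and not all members, and no count is given where many calls were of that kind. Of 9 tested genes for mechanotransduction and the tip link, 2 were higher and 3 lower in extrastriolar than in Ocm-high cells, beside 5.12% and 5.38% of all genes, with a median log2 fold change of -0.26 beside 0.01 over all genes tested. The other lower genes were Lhfpl5, which holds the tip link to the channel, at 269 ± 14.1 against 676 ± 93.6 CPM, and Loxhd1, a bundle protein, at 327 ± 28.6 against 611 ± 124 CPM. The stereocilia list held 20 tested genes, of which 2 were higher and 1 lower, beside the same shares of all genes. Xirp2, an actin-binding protein of stereocilia repair, was at 1565 ± 167 against 1032 ± 40.4 CPM, and Grxcr2, a taperin-associated protein at the stereocilia base, was at 142 ± 26.6 against 454 ± 101 CPM. Xirp2 kept its call in 2 of the 4 repeats that left out a library. The other called gene, Myo3b, lost its call without replicate 3 and in other repeats that left out 1 library.

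Among 20 tested genes of the kinocilium and axoneme, 5 were higher and none lower, against a background of 5.12% and 5.38%, at a median log2 fold change of 0.17. Cfap46, of the central pair apparatus, stood at 303, 270.4, 302 and 314 CPM in extrastriolar and 132, 103, 109 and 103 CPM in Ocm-high cells. Rsph4a, of the radial spoke head, stood at 194 ± 13.8 against 76.6 ± 8.66 CPM. Cfap53, Cfap43 and Tekt1 also passed. Cfap53 passed the filter through the extrastriolar libraries, with 1 Ocm-high library at its level. Cfap53 and Cfap43 kept their call in 2 of the 4 repeats that left out a library, and Tekt1 lost its call whenever any 1 library was left out.

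Of 20 channel genes 8 were tested. Kcnh8 passed the filter through the extrastriolar libraries and Kcnj16 through the Ocm-high libraries, so their calls are given as values. Kcnh8, a potassium channel of the EAG family, was higher, at 38.5, 44.8, 40.8 and 54.4 CPM in extrastriolar and 0, 2.51, 6.8 and 12.9 CPM in Ocm-high cells. Kcnj16, an inward rectifier, was lower, at 11.1 ± 3.89 against 141 ± 31.9 CPM. Kcna10, a potassium channel abundant in vestibular HCs, was at 1085 ± 199.8 and 1130 ± 262 CPM and did not pass (adjusted p = 0.997, edgeR).

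Of 14 tested ribbon synapse genes, 2 were lower and none higher, beside 5.38% and 5.12% of all genes, and 12 did not pass. Otof, the calcium sensor of vesicle release, stood at 557, 470.2, 586 and 446 CPM in extrastriolar and 1565, 1097, 1523 and 1014 CPM in Ocm-high cells. Cacna1d, the calcium channel that drives release, was at 89.9 ± 16.4 against 253 ± 33.6 CPM. Chrna1, a muscle-type acetylcholine receptor subunit, was at 12.1 ± 4.28 against 237 ± 45.3 CPM. Chrna9 and Chrna10 are the subunits of the efferent receptor of HCs. Chrna9 was at 307 ± 26.7 against 230.0 ± 38.5 CPM, with an adjusted p of 0.125 without and 0.00724 with the library as a block (edgeR). Chrna10 did not pass in either (adjusted p = 0.909 without the block, edgeR).

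Calcium buffers differed gene by gene. Pvalb, parvalbumin, stood at 90.5, 102, 93.6 and 90.2 CPM in extrastriolar and 1058, 777, 836 and 911 CPM in Ocm-high cells, without overlap. Calb1, calbindin, was under the filter on low counts, and held 2.26, 3.48, 4.98 and 3.98 CPM against 22, 120.2, 143 and 245 CPM. Atp2a2, the pump that returns calcium to the endoplasmic reticulum, was at 427 ± 38.4 against 148 ± 44.4 CPM, and Atp2b1, a plasma membrane pump, at 154 ± 13.5 against 52.6 ± 34.6 CPM. Of 10 tested genes of the list, 3 were higher and 2 lower, beside 5.12% and 5.38% of all genes.

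Cyp26b1 degrades retinoic acid and is known from the developing striola. In these cells it went against that use as a marker, at 74.7, 47.9, 41.8 and 65 CPM in extrastriolar and 0, 5.01, 0 and 0 CPM in Ocm-high cells (1 library of the latter above 0). The log2 fold change was 4.37 ± 0.61 (SE). Cyp26b1 passed the filter on low counts through the extrastriolar libraries alone, so its levels are given without a test. Pvalb and Calb1 stayed with the Ocm-high cells, as given above. By these levels, the evidence for the name "extrastriolar" was mixed within its own marker list.

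BMP ligands signal through receptor kinases to Smad proteins, and Id genes and the inhibitor Smad7 are known targets. Of 19 genes of the pathway besides Bmp2, 9 were tested against Ocm-high cells. Id3 and Id2 passed the filter on low counts through the extrastriolar libraries alone, so values are given without a count of calls. Id3 stood at 77, 77.9, 109.5 and 83.5 CPM against 0, 15, 6.8 and 6.46 CPM (log2 fold change 3.14 ± 0.39, SE). Id2 stood at 104, 67, 49.8 and 63.7 CPM against 22, 12.5, 13.6 and 6.46 CPM, and Smad7 at 208, 175, 208 and 194 CPM against 99.2, 87.7, 102 and 103 CPM. None of the 3 overlapped between the populations. Id3 was at 212 CPM in cells outside the HC gate, above its extrastriolar level, and Id2 at 48.6 CPM, below it.

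Against type II HCs 10 genes of the pathway were tested, and Id2 and Id1 passed the filter through the extrastriolar libraries, with at most 1 type II library at its level. Smad7 was at 37.7 ± 13.4 CPM in type II HCs, Id2 at 11.7 ± 11.7 CPM and Id3 at 26 ± 22.4 CPM, with log2 fold changes of 2.40 ± 0.25, 3.11 ± 0.55 and 2.22 ± 0.40 (SE) in favour of extrastriolar cells. Id1 passed too, with levels that overlapped, and kept its call in 1 of the 4 repeats that left out a library. Against cochlear HCs the list went both ways, with 2 of 12 higher and 3 lower beside 17.2% and 12.3% of all genes: Id4 and Smad7 were higher in extrastriolar cells, and Id3, Id1 and the receptor gene Bmpr1b lower. Bmpr1b was at 0.544 ± 1.09 against 52.7 ± 25.4 CPM, and passed the filter through the cochlear libraries alone. The levels of Id3, Id1 and Smad7 overlapped, and they kept their call in 2, 2 and 3 of the 4 repeats that left out a library. Id1 also lost it with the replicate number as a block (adjusted p = 0.0587, edgeR). The 2 vestibular comparisons share the extrastriolar libraries.

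Few receptors and partners of the other markers passed the filter on low counts. Of 9 osteopontin receptor genes only Itgb1 was tested against Ocm-high cells, at 24.4 ± 6.69 CPM, and it did not pass (adjusted p = 0.54, edgeR). Of 7 genes for ADAM relatives and LGI ligands besides Adam11, only Adam22 was tested there, at 27.7 ± 10.3 CPM (adjusted p = 0.87, edgeR).

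Of 18 HC transcription factors 10 were tested against Ocm-high cells. Isl1 and Tbx2 were lower in extrastriolar cells, and passed the filter on low counts through the Ocm-high libraries alone. Isl1, a LIM homeodomain factor, was at 14.2 ± 5.99 against 141 ± 27.2 CPM. Tbx2, known for setting cochlear HC fate, was at 8.5 ± 3.11 against 56.3 ± 31.1 CPM. Atoh1, the factor that starts HC development, was below the filter, at 0.684 ± 0.847 CPM in extrastriolar cells.

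Against type II HCs, which share the Ocm-negative state, 430 (7.22%) of 5957 genes were higher and 512 (8.59%) lower in extrastriolar cells by the same test. Without replicate 3, 272 were higher and 310 lower. With no TMM scaling the calls were 377 and 558. The 10 supporting cell markers, with Tecta at 0, summed to 579.9, 582, 578 and 402 CPM in type II HCs. In extrastriolar cells they summed to 56.6, 209, 163 and 69.0 CPM. The rule used 5 of the 10, and of 2 that were tested only Sparcl1 passed. Sparcl1 was the most abundant of the 10 in type II HCs, at 391 ± 62.1 CPM. It was at 35.8 ± 18.2 CPM in extrastriolar cells (log2 fold change -3.19 ± 0.24, SE, adjusted p = 1.95e-09, edgeR). With no UMI allowed in any of the 5 supporting cell genes, 332 of 4853 genes were higher and 358 lower, and Sparcl1 kept its call.

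Car12, a membrane carbonic anhydrase, stood at 1283, 941, 1019 and 1050 CPM in extrastriolar cells and 10.9, 16.4, 21.8 and 26.4 CPM in type II HCs, 56.9-fold higher by the means. Ly6h, a GPI-anchored modulator of nicotinic receptors, stood at 172, 145, 136 and 109 CPM and had no UMI in type II HCs, a level at least 30.0-fold higher. Adgrd1, an adhesion receptor, and Mei1, known from meiosis, had no UMI there either, against 95.1 ± 24.1 and 62.8 ± 4.09 CPM. Lbh, a transcriptional cofactor, was at 316 ± 41.9 CPM and had 1 UMI in type II HCs. Cyp2g1, a cytochrome P450 known from olfactory epithelium, was at 402 ± 73.2 CPM, also against 1 UMI. Mgat4c and Cyp26b1 had no UMI in type II HCs. All the genes of this paragraph passed the filter on low counts through the extrastriolar libraries alone. They were also chosen by fold and for no overlap, so their levels are given without a test.

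Genes lower in extrastriolar cells than in type II HCs included a channel subunit, an exchanger and developmental genes. Kcnv1, a silent potassium channel subunit, had 1 UMI in extrastriolar cells and 186, 91.6, 142 and 59.3 CPM in type II HCs. Slc8a1, the sodium-calcium exchanger, was at 0, 1.74, 0.996 and 1.33 CPM against 274, 52.3, 153 and 85.7 CPM. Fgf10, a secreted growth factor, was at 1.4 ± 1.22 against 119.8 ± 31.4 CPM. Tox, an HMG-box factor, was at 0.653 ± 1.31 against 168 ± 18.5 CPM, and Thsd7b at 0.933 ± 1.08 against 203 ± 33.4 CPM. Atoh1 was at 0.684 ± 0.847 against 93.2 ± 23.6 CPM, and Prox1, another developmental factor, at 34 ± 13.1 against 134 ± 46.6 CPM. All of them except Prox1 passed the filter on low counts through the type II libraries alone, so their levels are given without a test. Prox1 had an adjusted p of at most 4.78e-05 (edgeR).

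Of 21 tested stereocilia genes 9 were higher and 3 lower than in type II HCs, beside 7.22% and 8.59% of all genes, and 9 did not pass. Myo3a passed the filter through the type II libraries. The median log2 fold change of the list was 0.14. Espn, the actin bundler espin, stood at 2893, 2405, 2951 and 2139 CPM in extrastriolar and 1050, 1063, 1483 and 1147 CPM in type II HCs. Ptprq, a phosphatase of the stereocilia shaft, was at 1742 ± 340.3 against 789.8 ± 159 CPM, and Xirp2 at 1565 ± 167 against 781 ± 155 CPM. The lower genes were the actins Actg1 and Actb and the motor Myo3a, the last at 16.2 ± 6.15 against 85 ± 14.1 CPM. Actb lost its call in every repeat that left out a library. Actb was at 1416 CPM and Actg1 at 673 CPM in cells outside the HC gate, above both HC types.

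Of 19 tested kinocilium genes, 8 were higher and 2 lower than in type II HCs, beside 7.22% and 8.59% of all genes. Cfap126, a ciliary microtubule protein, was at 523 ± 47.5 against 236 ± 34.7 CPM, and Rsph4a at 194 ± 13.8 against 76.5 ± 22.5 CPM. Cfap52 was the largest exception, at 98 ± 26.5 against 406 ± 114 CPM. The other increases were smaller, and Ccdc40, Cfap43, Rsph1, Dnah6 and Mns1 lost their call without TMM scaling.

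Of 8 tested channel genes, 3 were higher and 4 lower, beside 7.22% and 8.59% of all genes, and 1 of them, Kcnj2, passed the filter through the type II libraries. Kcnab1, a channel beta subunit, stood at 584, 579, 461 and 537 CPM in extrastriolar and 10.9, 42.5, 65.4 and 65.9 CPM in type II HCs. Kcna10 was at 1085 ± 199.8 against 422 ± 73.1 CPM. Kcnh8, which was higher than in Ocm-high cells, was lower than in type II HCs, at a log2 fold change of -1.92 ± 0.24 (SE). Its extrastriolar level lay between those of the other vestibular populations.

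Of 13 tested ribbon synapse genes, 4 were lower and 1 higher than in type II HCs, beside 8.59% and 7.22% of all genes, and 8 did not pass. Slc17a8, the vesicular glutamate transporter of HCs, stood at 120.0, 112, 92.6 and 117 CPM in extrastriolar and 886, 1034, 687 and 804 CPM in type II HCs. Otof stood at 3348, 2293, 2105 and 2129 CPM in type II HCs, so its level rose from extrastriolar to Ocm-high to type II cells, with no overlap between extrastriolar cells and either. Erc2, an active zone scaffold, was the gene that was higher, at 99.2 ± 15.6 against 37.4 ± 14.7 CPM. Of 8 efferent receptor genes only 2 were tested, and both were higher, beside 7.22% of all genes. Chrna9 was at 307 ± 26.7 against 176 ± 40.8 CPM, and Chrna10 at 466 ± 123 against 236 ± 53.7 CPM.

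**Figure D3:**
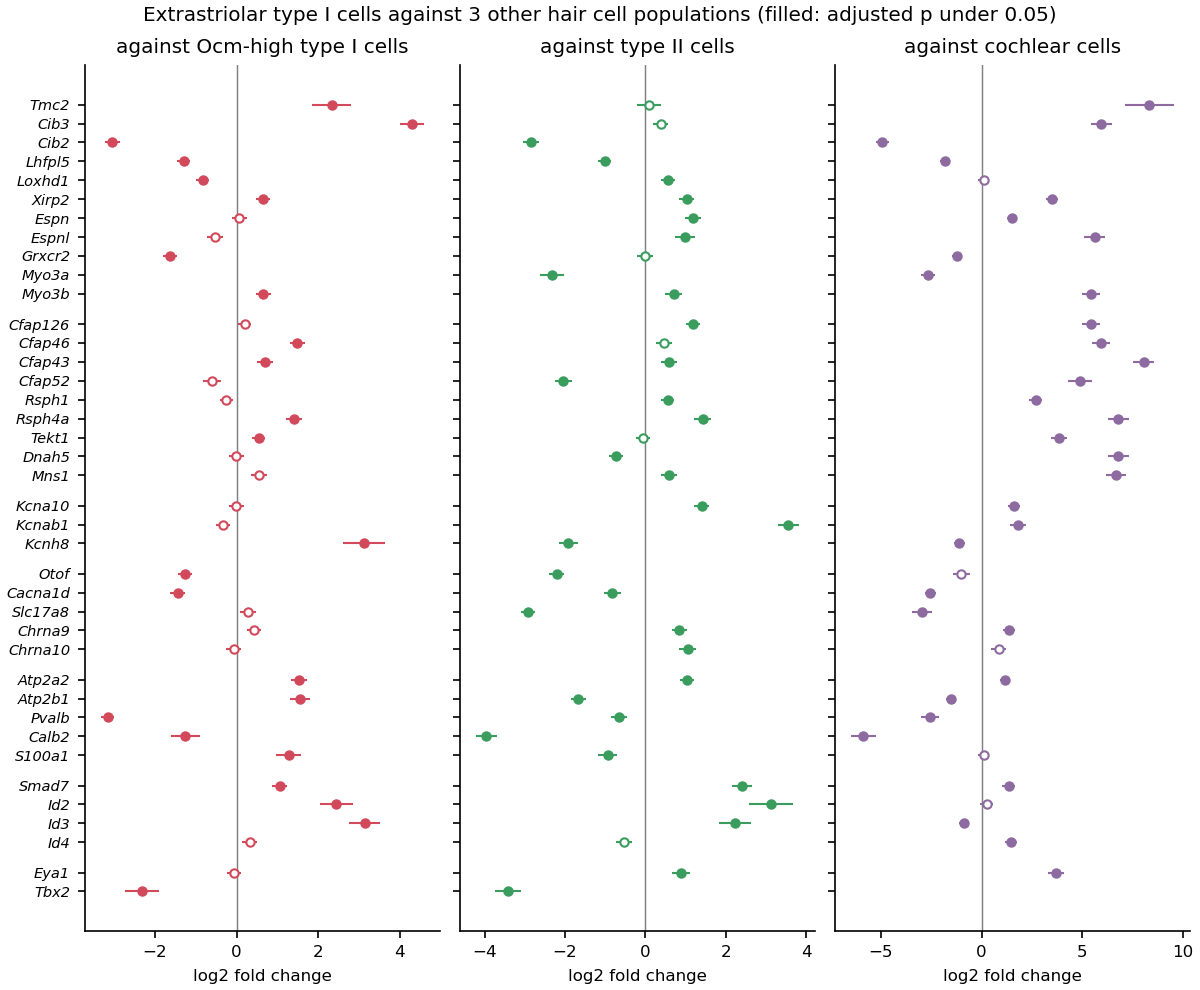
Log2 fold changes (points) with SE (bars) of extrastriolar cells against Ocm-high, type II and cochlear hair cells, for bundle, kinocilium, channel, synapse, calcium, BMP and transcription factor genes chosen after their values were seen. Filled points had an edgeR adjusted p under 0.05, and genes under the filter on low counts have no point. Some filled genes reached that filter in 1 population, with at most 1 library of the other. Against cochlear cells these include Cib3 and most of the kinocilium genes, and their fill is not to be read as a test. Cib3 and Cib2 point in opposite directions against Ocm-high and cochlear cells, and the kinocilium genes lie far to the right against cochlear cells.

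Against cochlear HCs, the design compares organs as well as cell types, and the libraries differ. Here 1077 (17.2%) of 6271 genes were higher and 771 (12.3%) lower in extrastriolar cells, and 683 and 455 without replicate 3. Cochlear HCs were few and were not divided into inner and outer HCs. Slc26a5, the outer HC motor prestin, stood at 1305, 316, 569 and 1272 CPM in them and had no UMI in extrastriolar cells. The whole extrastriolar rule was passed by 3 cochlear barcodes, all in replicate 3. In cochlear HCs of that replicate Spp1 reached 1725 CPM, against 0 to 30.4 CPM in the other cochlear libraries, and leaving out the cochlear cells with an Adam11 UMI gave 1110 higher and 755 lower genes.

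Cochlear HCs are known to lose the kinocilium as they mature. Of 22 genes of the kinocilium list, 19 were tested, with mean levels of 0 to 60.1 CPM in cochlear HCs. Genes this low there pass the filter on low counts mainly through the extrastriolar libraries, so values are given without a count of calls. Cfap43 stood at 584, 429.7, 387 and 463 CPM in extrastriolar cells and 0, 2.37, 0 and 0 CPM in cochlear HCs. Tekt2, a filament protein of axonemal microtubules, and Dnaic1, a dynein chain, had no UMI in cochlear HCs and stood at 161 ± 27.4 and 138 ± 18.6 CPM, at least 34.9-fold and 29.8-fold higher. Foxj1, the factor that drives motile cilia genes, was at 133 ± 18.8 against 0.593 ± 1.19 CPM.

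Meis2, a TALE homeodomain factor, stood at 371, 405, 448 and 442 CPM in extrastriolar cells with no UMI in cochlear HCs. In the other direction Rorb, a nuclear receptor, stood at 911, 1778, 1430 and 1531 CPM in cochlear HCs and had 1 UMI in all extrastriolar cells, as did Gata3, a zinc finger factor of the auditory organ, at 485 ± 196 CPM. Meis2, Rorb and Gata3 each reached the filter on low counts in 1 population alone, so no test is given. Of 18 HC factors 12 were tested, and 7 of them passed the filter through 1 population, so values are given without a count of calls. Eya1 was at 203 ± 25.2 against 9.13 ± 10.8 CPM, and Ikzf2, helios, at 14.9 ± 2.45 against 252 ± 233 CPM.

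Of 21 tested stereocilia genes 7 were higher and 7 lower, beside 17.2% and 12.3% of all genes, and 7 did not pass. Espnl and Myo3b passed the filter through the extrastriolar libraries and Myo3a through the cochlear ones. Xirp2, Ptprq, Espn, Espnl, Pls1, Eps8 and Myo3b were higher and Actg1, Strc, Eps8l2, Gpsm2, Gnai3, Myo3a and Grxcr2 lower than in cochlear HCs. Espnl, espin-like, was at 241 ± 73.9 against 1.78 ± 3.56 CPM, and Myo3b at 210.2 ± 26.5 against 1.78 ± 3.56 CPM, while the related motor Myo3a went the other way at 16.2 ± 6.15 against 82.6 ± 49.6 CPM. Strc and Eps8l2 kept their call in 1 and Actg1 and Gnai3 in 2 of the 4 repeats that left out a library, and the levels of Strc, Eps8l2 and Gnai3 overlapped. Gnai3 also lost its call with the replicate number as a block (adjusted p = 0.126, edgeR).

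Within the extrastriolar cells, 3 S100 genes varied most from cell to cell. Genes were ranked in each library by the variance of their counts beyond that of sampling, and ordered by their worst rank over the 4 libraries. S100a13 came first, with a worst rank of 1, followed by S100a6 with 3 and S100a1 with 4. Ptgds, Spp1, Malat1, Gm42418, Apoe and Coch were also among the first 10. Ptgds, Apoe and Coch were between 18.4 and 20.7 times higher in cells outside the HC gate than in extrastriolar cells. The level outside the gate was 0.0816 times the extrastriolar level for S100a13, 0.292 times for S100a6 and 0.613 times for S100a1. A UMI was present in 44.3%, 29.6% and 67.5% of extrastriolar cells for these genes, and in 48.1%, 34.3% and 55.5% of macrophage-like cells, so the presence of a UMI alone does not set the cells apart. The part of free RNA in these variances was not tested. Between 8 and 10 of these genes stayed among the first 10 when a library was left out, and 9 when cells were thinned.

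The 3 S100 genes encode small EF-hand calcium-binding proteins and lie in 1 cluster on chromosome 3 (GRCm38). S100a1 spans 90511034-90514392 on the minus strand, S100a13 spans 90514435-90524581 on the plus strand, and S100a6 spans 90612882-90624181 on the plus strand. The RefSeq starts of S100a1 and S100a13 lie 105 bases apart and head to head, so the windows from 250 bases before to 50 after each start share 204 bases, while S100a6 starts 98.5 kb further on. S100a14, S100a16, S100a3, S100a2, S100a4 and S100a5 lie between S100a13 and S100a6. They stood at 0 to 3.85 CPM in extrastriolar cells and overlapped between the S100a6 groups described below. The windows of S100a13 and S100a6 are shown because the counts of S100a13 and S100a6 moved together. Capitals mark GTTGCC or its reverse complement GGCAAC, the half-site of RFX factors, the only one of the 3 motifs searched on both strands that was found in them.
S100a13, chr3:90514185-90514484, plus strand: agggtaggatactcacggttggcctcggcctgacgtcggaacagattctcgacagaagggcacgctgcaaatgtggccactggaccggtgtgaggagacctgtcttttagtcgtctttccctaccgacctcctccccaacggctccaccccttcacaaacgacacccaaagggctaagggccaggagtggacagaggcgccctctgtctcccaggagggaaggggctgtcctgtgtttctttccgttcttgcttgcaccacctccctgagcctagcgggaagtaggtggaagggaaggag
S100a6, chr3:90612644-90612943, plus strand: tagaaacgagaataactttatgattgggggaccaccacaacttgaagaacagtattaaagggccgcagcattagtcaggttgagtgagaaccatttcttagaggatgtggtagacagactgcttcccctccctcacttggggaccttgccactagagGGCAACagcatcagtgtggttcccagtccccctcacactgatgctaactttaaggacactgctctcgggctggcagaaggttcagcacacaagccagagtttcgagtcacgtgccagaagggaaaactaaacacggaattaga
The S100a6 match begins 93 bases before the start. Of all 32851 windows of this kind in RefSeq for GRCm38.p6, 12.5% held GTTGCC, 17.2% the E-box CATCTG and 5.29% the homeodomain core TAATTA. A match is a run of letters and not a site.

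S100a6 counts were close to all or none in single cells. It had no UMI in 740 extrastriolar cells, 1 or 2 UMIs in 81, and at least 3 in 230, with a median of 39, 26, 37.5 and 35 UMIs a cell in the positive cells of replicates 1, 3, 4 and 5. These made up 13.2%, 20.5%, 29.2% and 18.6% of the extrastriolar cells, a mean of 20.4% ± 6.62. Positive cells were somewhat deeper, with medians of 5605, 5363, 3641 and 5469 UMIs against 4135, 4498, 3322 and 4571. The line at 3 UMIs was drawn after the counts had been seen, so the levels that follow are a description without a test.

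S100a13 and S100a1 went with S100a6 in the same cells. At least 10 S100a13 UMIs were counted in 212 of the 230 positive cells and in 65 of the 821 others. The level of S100a13 was 20763, 14628, 16212 and 15664 CPM in positive cells and 729.8, 1132, 2117 and 607 CPM in the others. The level of S100a1 was 10426, 9283, 9481 and 8023 CPM against 585, 1115, 1698 and 466 CPM. Neither overlapped between the groups in any library. S100a8 and S100a9, of the same chromosome, overlapped between the groups. S100a8 was at 275 ± 506 against 51.6 ± 87.6 CPM and S100a9 at 425 ± 784 against 57.6 ± 95.6 CPM, higher on average in positive cells, and both are granulocyte genes that stood at 9011 and 11288 CPM outside the HC gate.

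Type II HCs also held these transcripts. S100a1 was at 5684 ± 1272 CPM in them, lower than in S100a6-positive extrastriolar cells and higher than in the others, and S100a13 was at 2097 ± 569 CPM. Ocm-high cells were low in both S100a6 and S100a13, at 41.9 ± 24.1 and 540 ± 284 CPM.

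A set of other genes moved with S100a6. Fndc1, a fibronectin domain protein, stood at 118, 106, 228 and 191 CPM in positive cells and 2.67, 10.4, 17.2 and 13.5 CPM in the others. Slc32a1, the vesicular transporter of GABA and glycine, stood at 55.2 ± 34.8 against 2.12 ± 2.28 CPM, on 41 and 4 UMIs. Prox1 stood at 107 ± 52 against 11.5 ± 5.58 CPM, Fgf7, a growth factor, at 69.6 ± 11.7 against 4.75 ± 3.55 CPM, and Whrn, whirlin of the stereocilia tip and ankle links, at 95.5 ± 31.2 against 12.1 ± 2.58 CPM. Each of these was higher in positive cells in all 4 libraries. These genes, and those lower in positive cells below, were chosen after their values were seen, which favours such agreement.

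Other genes marked the S100a6-negative cells. Mgat4c, which had set extrastriolar cells apart from both other vestibular populations, had 1 UMI in the positive cells and 123, 136, 93.3 and 120.0 CPM in the negative ones, so it belonged to only a portion of the extrastriolar cells. Gsn, the actin-severing protein gelsolin, stood at 0, 38.7, 13 and 6.16 CPM against 361, 319, 273 and 328 CPM. Ckb, brain creatine kinase, was at 36.6 ± 36 against 389 ± 56.1 CPM, Cdkn2d, a cell cycle inhibitor, at 88.6 ± 25.1 against 441 ± 34 CPM, and Sfrp1, a Wnt antagonist, at 9.94 ± 8.6 against 116 ± 14.2 CPM. Pvalb was at 35.9 ± 34.5 against 112 ± 15 CPM.

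The markers of the whole population overlapped between the S100a6 groups. Spp1 was at 41571 ± 5253 against 38950 ± 3815 CPM, Bmp2 at 637 ± 105 against 593 ± 186 CPM, Pcdh20 at 1312 ± 242 against 1547 ± 357 CPM, Atp2b2 at 1650 ± 287 against 1756 ± 176 CPM and Adam11 at 908 ± 212 against 989 ± 193 CPM. Pcdh20 was lower in positive cells in each of the 4 libraries, and the other markers differed in direction between libraries. As utricle, saccule and cristae were pooled in each library, whether the groups came from different organs or zones cannot be told apart.

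**Figure D4:**
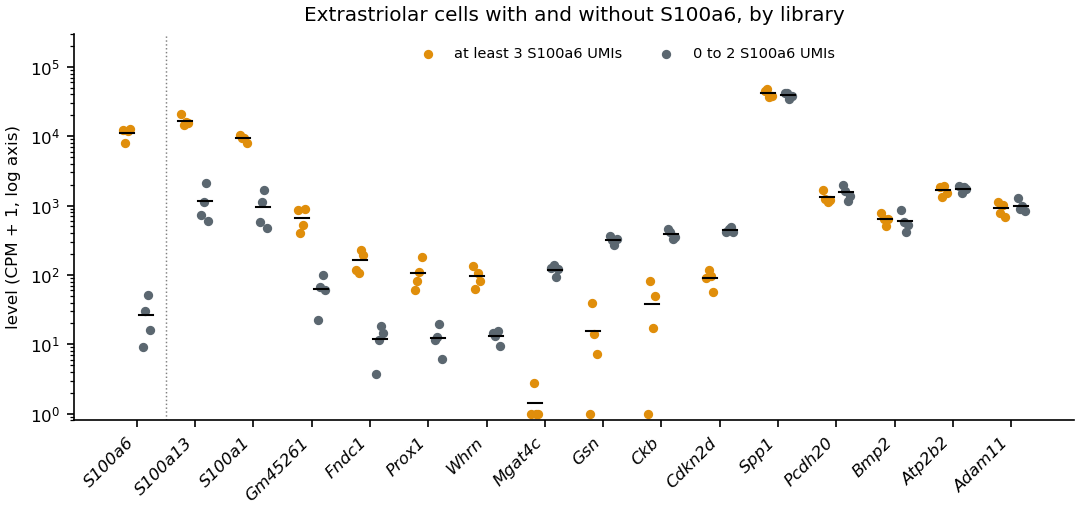
Levels (CPM + 1, log axis) in extrastriolar cells with at least 3 S100a6 UMIs and with 0 to 2, with 1 point a library for 4 libraries and a bar at the mean. S100a6, left of the dotted line, made the split. S100a13 and S100a1 are higher and Mgat4c and Gsn lower in the positive cells without overlap, while Spp1, Pcdh20, Bmp2, Atp2b2 and Adam11 overlap. Mgat4c and Gsn were chosen after their values were seen, which favours a lack of overlap.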

How the data were processed

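The authors deposited UMI counts per gene and barcode for 10 libraries, made with Cell Ranger (6.1.2 in the submitters' notes, 5.0.1 in the file headers of replicates 1 and 2) on mm10, with Seurat used later in the study. The counts were not normalized and covered 32285 genes. From them, cells were chosen by the rule given at the start, and UMIs were summed per library and population. The 3 comparisons used edgeR 4.0.16 (quasi-likelihood test, TMM factors, filterByExpr, Benjamini-Hochberg over all genes tested, R 4.3.3), without the 14 genes of the rule in any count. Tables were made with Python 3.11.15, numpy 2.4.6, scipy 1.17.1 and pandas 2.3.3.

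The members, lists and tests were chosen with earlier results of these data known. Genes named for a comparison were those 10 that moved furthest up and those 10 that moved furthest down past an adjusted p of 0.05, with no overlap between the groups, at least 50 CPM in the higher group and not over 4-fold higher outside the HC gate. From each list came the most abundant genes and those with the largest changes, and genes named beyond this were chosen after their values were seen. Some genes that these rules name are not reported here. A fold against a population without a UMI was computed against 3 counts over its libraries.

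Vestibular populations with the same replicate number come from the same library, so the numbers pair them. The correlation of their deviations from the group means was 0.201 to 0.238 for Ocm-high and 0.0920 to 0.250 for type II HCs. No doublet caller was run. Leaving out cells over 3 times their median UMIs stood in for one, and other alternatives were DESeq2 1.42.0, no TMM scaling, no filter on low counts, thinning, other thresholds of the rule and leaving out each library. Tested on simulated counts with a log2 fold change of 2, the script recovered 100% of 193 changed genes for Ocm-high, 97.9% for type II and 96.3% of 189 for cochlear HCs, with 3.5%, 4.06% and 2.67% false among the calls. Positions come from GENCODE M21, whose build GRCm38 is mm10, and promoter windows from RefSeq.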

Additional observations from a re-analysis of the deposited data

Results flagged for a closer look

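The share of extrastriolar cells among the gated vestibular HCs in replicate 4, 68.1%, stood apart from the 61.6%, 62.2% and 61.9% of the other libraries. Chance alone sets about 1 in 20 groups of 4 apart in this way, and 72 values were looked at. Replicate 4 also had the lowest median depth of extrastriolar cells, 3443 UMIs, and with every cell thinned to 1000 UMIs the shares were 41.2%, 39.9%, 42.7% and 32.4% in replicates 1, 3, 4 and 5, so replicate 4 no longer stood apart. Thinning lowered the share in every library, and whether depth set replicate 4 apart was not tested. With at least 2 Adam11 UMIs the share was 55.8% in replicate 1 and 56.8% in replicate 4, and with under 10% mitochondrial UMIs the shares were 63.2%, 67.7%, 68.6% and 62.4%. The gap stayed with up to 2 Ocm UMIs allowed, at 64.5%, 63.7%, 69.5% and 63.7%. It also stayed with replicate 2 in place of replicate 1, at 62.3%, 62.2%, 68.1% and 61.9%. Replicate 4 had the highest share in all of these settings.

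In the cochlear libraries, 3 barcodes of replicate 3 passed the extrastriolar rule, against 0 in replicates 1, 4 and 5. None of the 3 barcodes was also present in the vestibular library of the same number.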

How the results depend on the processing

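Counts of genes higher and lower are given in that order. Against Ocm-high cells the library block (replicate block) gave 560 and 515, no filter on low counts 530 and 372, thinning to 1000 UMIs 83 and 73, and leaving out a library 189 to 307 and 197 to 324. Against type II HCs, DESeq2 gave 529 and 832, no filter 726 and 773, thinning 124 and 102, and leaving out a library 272 to 488 and 310 to 581. Against cochlear HCs, no filter gave 1688 and 1234, thinning 289 and 184, and leaving out a library 683 to 1309 and 455 to 931. Fewer genes could be tested in thinned cells, 1809 against Ocm-high cells. Among the repeats that left out a library, the lowest counts in each comparison came without replicate 3, which holds the most cells. Thinning left 277 extrastriolar cells. Their share among gated HCs was 39.0% with thinning and 53.8% with at least 2 Adam11 UMIs. Snap25 against cochlear HCs changed direction without cells over 3 times the median UMIs, to a log2 fold change of 0.21 that did not pass the edgeR test, and the cause was not tested. Of the values of 252 named calls under the alternatives, 3370 kept direction and side of the threshold, 200 lost the threshold and 1 changed direction. The 252 include the markers Spp1, Pcdh20, Bmp2 and Atp2b2 and genes that passed the filter on low counts through 1 population. For these the counts are no support. Alternatives in which a gene could not be tested are not counted. In the vestibular comparisons the library block ended no named call, and brought Chrna9 against Ocm-high cells and Cib3 against type II HCs, which are not among those calls, past the threshold. Cochlear and vestibular replicates share only a number (correlations 0.000217 to 0.119), and blocking on it gave 997 and 663 calls and ended those of Gnai3, Hes6, Id1, Snap25 and Whrn. Hba-a1, called higher than in Ocm-high cells, lost its call without the 9 haemoglobin-rich cells (adjusted p = 0.269, edgeR), an alternative chosen after seeing the data, as was leaving out cochlear cells with Adam11. Few Ocm-high, type II and cochlear HCs per library limit the depth: 3 counts are 3.79, 4.68 and 4.63 CPM in them.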
